A study of Mus musculus with 18 samples.

Results

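Treg cells of the mouse liver were compared with Treg cells of the mouse spleen. Treg cells are CD4+ T cells that carry the transcription factor Foxp3 and restrain other immune cells. The comparison used 3 liver and 3 spleen libraries, 6 of the 18 libraries of the series, taken by their tissue labels. Both groups came from wild-type mice with no treatment, and polyadenylated RNA of the freshly sorted cells was sequenced from a directional library kit. The other 4 sites (peripheral blood, bone marrow, lung and lymph node, 3 libraries per site) are given below only as levels beside the main comparison. The sort gates, the age and sex of the mice, the number of animals per library and the way each organ was turned into a cell suspension are not given in the sources used here. P-values therefore measure the spread between these libraries, which may be technical.

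Values are TPM, a share of each library's RNA after division by transcript length. Treg cells move between blood, lymphoid organs and other tissues with the help of chemokine receptors and integrins. Treg cells that have settled in non-lymphoid organs are known for a set of genes that includes the interleukin-33 receptor Il1rl1, the growth factor Areg and the transcription factors Gata3, Rora and Pparg. The spleen is a lymphoid organ that filters blood, and the liver is an organ whose sinusoids hold many lymphocytes and which is known for immune tolerance.

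Of 14487 genes that averaged 1 TPM or more in either group, 1103 were higher in liver and 1154 were lower (limma on log2(TPM + 1), Benjamini-Hochberg adjusted p under 0.05). These are 7.61% and 7.97% of the genes tested, 15.6% in all, and are the background for each count of list members below. When libraries were scaled on T cell genes, the split was 1329 higher and 887 lower. Liver and spleen libraries did not overlap for 5473 genes, 37.8% of those tested, which is the background for each statement on overlap below. The median log2 fold change over all genes tested was -0.07, with a median standard error of 0.3. At a transcript length of 1 kb, 1 read was worth 0.345 to 0.423 TPM in liver and 0.151 to 0.166 TPM in spleen. By group means, a given TPM value thus rested on 2.4 times as many reads in spleen. A level of 10 TPM at this length rested on 23.6 to 29.0 reads in liver and 60.2 to 66.2 reads in spleen. Estimated reads on 12062 genes with 1 annotated transcript differed less, at 230841 to 264418 in liver and 426494 to 468377 in spleen. The coefficient of variation between replicates, as a median over genes from 100 TPM up, was 10.5% in liver and 5.24% in spleen. A value of 0 is described below as listed at 0, because 27 genes listed at 0 in 1 liver library reached 100 TPM in another.

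The labelled cell type was checked on its markers before the results. Foxp3 stood at 165, 148 and 134 TPM in liver and 132, 149 and 138 TPM in spleen, and the groups overlapped (log2 fold change 0.089 with SE 0.11, adjusted p = 0.608). Cd4, the T cell co-receptor, stood at 332, 378 and 315 TPM in liver and 367, 321 and 372 TPM in spleen, with overlap (log2 fold change -0.049 with SE 0.10, adjusted p = 0.759). Cd3e, a chain of the antigen receptor complex, stood at 592, 517 and 517 TPM in liver and 533, 520.4 and 539.9 TPM in spleen, also with overlap (log2 fold change 0.027 with SE 0.071, adjusted p = 0.825). All 3 defining genes were thus well detected in all 6 libraries, and none passed the test. The summed level of the 20 general T cell markers was 8919 to 9328 TPM in liver and 10851 to 10986 TPM in spleen. Of these 20 markers, 3 were higher in liver (15%, against 7.61% over all genes). Another 6 were lower (30%, against 7.97%), among them Cd3d, Lck, Lat and Zap70, which are described below.

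Markers of other cell types were present in both groups at different levels, as the plot of summed marker levels shows. The 13 B cell markers summed to 406 to 461 TPM in liver and 2002 to 2069 TPM in spleen, and 12 of them were lower in liver. The 12 dendritic cell markers, which include the MHC class II genes, summed to 564 to 627 TPM in liver and 2461 to 2526 TPM in spleen. Much of this was Cd74, at a mean of 292 TPM in liver and 1273 TPM in spleen. The MHC class II gene H2-Ab1 added a mean of 64.8 TPM in liver and 343 TPM in spleen. Which cells these messages came from was not tested. The 10 plasma cell markers summed to 129 to 164 TPM in liver and 401 to 412 TPM in spleen. In the opposite direction, the 11 erythroid markers found in the tables summed to 10980 to 12028 TPM in liver and 1885 to 2029 TPM in spleen. This sum was nearly all haemoglobin, which held 1.09% to 1.19% of the RNA in liver and 0.183% to 0.197% in spleen. The list itself was mixed: 6 of its 11 tested genes were higher in liver (4 haemoglobin genes, the haem synthesis enzyme Alas2 and the transferrin receptor Tfrc) and 2 were lower (the membrane transporter Slc4a1 and the erythroid factor Klf1, which was listed at 0 in all liver libraries). The call of Tfrc was lost without spleen replicate 1 (adjusted p = 0.0518, the highest over its alternatives). In bulk RNA, fewer cells of a type and less RNA per cell cannot be told apart.

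**Figure D1:**
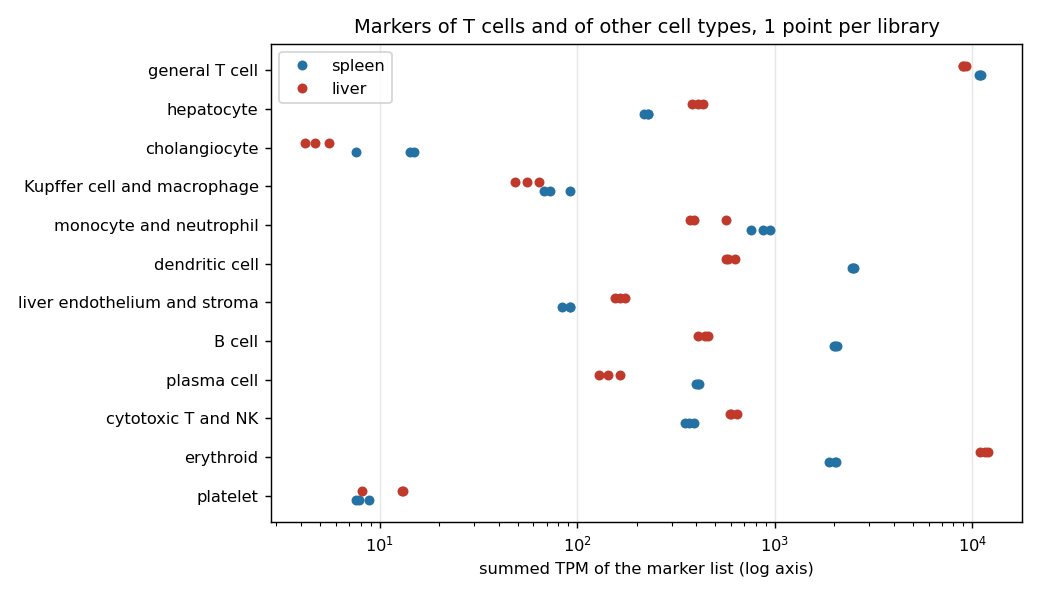
Summed TPM of each marker list on a log axis, with 1 point for each of the 3 liver (red) and 3 spleen (blue) libraries. The marker sums of B, plasma and dendritic cells lie lower in liver. The erythroid sum, nearly all haemoglobin, lies higher in liver. T cell marker sums lie at 8919 to 9328 TPM in liver and 10851 to 10986 TPM in spleen.

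The 22 hepatocyte markers summed to 383 to 432 TPM in liver and 217 to 229 TPM in spleen. Most of this was Ass1, an enzyme of arginine synthesis that other cells also make, at 383, 349 and 364 TPM in liver and 200.1, 200.1 and 209 TPM in spleen. Of the 22 markers, 8 were listed at 0 in all liver libraries, among them the transthyretin gene Ttr and the fibrinogen genes Fga and Fgg. The albumin gene Alb, among the most abundant messages of hepatocytes, stood at 4.38, 5.1 and 6.69 TPM in liver and was listed at 0 in all spleen libraries. Clec4f, a marker of Kupffer cells (the liver's resident macrophages), stood at 8.08, 11.1 and 6.33 TPM in liver and was listed at 0 in all spleen libraries. The 15 Kupffer cell and macrophage markers together summed to 48.2 to 63.9 TPM in liver and 68.1 to 92.2 TPM in spleen. The 17 markers of liver endothelium and stroma summed to 154 to 175 TPM in liver and 84.0 to 92.0 TPM in spleen. Most of both sums was Pecam1, at 117, 79.2 and 93 TPM in liver and 87.5, 73.8 and 82.9 TPM in spleen. Pecam1 did not pass the test, and its groups overlapped (adjusted p = 0.383). Of the 17 markers, 8 were tested and 6 were higher in liver, while the collagen genes Col1a1 and Col3a1 were listed at 0 in all liver libraries. Clec4g, a lectin of sinusoidal endothelium, stood at 15.2, 20.6 and 24.5 TPM in liver and 0.16, 0 and 0 TPM in spleen and ranked among the 15 top genes higher in liver. Stab2, a scavenger receptor of the same cells, stood at 16.1, 22.9 and 3.8 TPM in liver and 0.35, 0.71 and 0.18 TPM in spleen, and its call was lost when any 1 spleen library was left out (adjusted p up to 0.071 over the alternatives). The part of endothelial message in other results was not tested.

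The 2 top-ranked genes higher in liver were heat shock genes. Heat shock proteins are chaperones that hold and refold proteins, and their genes are known targets of the transcription factor Hsf1 when proteins unfold. Hspa1a and Hspa1b encode the inducible Hsp70, the chaperone that binds unfolded stretches of protein. Hspa1a stood at 1397, 1449 and 1640.3 TPM in liver and 14.2, 9.94 and 11.9 TPM in spleen (log2 fold change 6.85 with SE 0.14, adjusted p = 7.74e-07). Hspa1b stood at 2223, 2445 and 2743 TPM in liver and 37, 38.6 and 41.9 TPM in spleen (log2 fold change 5.94 with SE 0.10, adjusted p = 3.1e-07). Every liver library lay above every spleen library by a wide margin. The 2 genes are near-identical copies and reads can be split between them arbitrarily, so their sum is the safer value: 3620, 3893 and 4383 TPM in liver and 51.2, 48.6 and 53.9 TPM in spleen, a ratio of means of 77.4. Each group of libraries came from its own organ. The tissue and the preparation of its cells therefore cannot be told apart in any difference between liver and spleen given here. That limit covers these values, those of the immediate early genes below and those of all later groups of genes.

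The promoters of this pair are shown because the genes ranked highest and each promoter holds a heat shock motif. Both sequences are the 250 bases before the transcript start, from RefSeq on GRCm38.p6, written 5′ to 3′ on the gene's strand. Capitals mark GAANNTTC, the core of a heat shock element, which was searched on both strands.
Hspa1a promoter, chr17:34972157-34972406, minus strand: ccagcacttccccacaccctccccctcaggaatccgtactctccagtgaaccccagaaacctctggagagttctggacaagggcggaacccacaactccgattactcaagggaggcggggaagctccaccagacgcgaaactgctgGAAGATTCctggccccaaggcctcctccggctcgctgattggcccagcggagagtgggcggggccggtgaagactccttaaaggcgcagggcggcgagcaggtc
Hspa1b promoter, chr17:34959239-34959488, minus strand: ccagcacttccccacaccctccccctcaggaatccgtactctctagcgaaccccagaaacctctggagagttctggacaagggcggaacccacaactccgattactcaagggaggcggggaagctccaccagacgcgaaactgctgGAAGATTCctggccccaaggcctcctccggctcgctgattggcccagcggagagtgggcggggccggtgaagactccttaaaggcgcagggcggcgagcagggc
The windows were identical at 247 of 250 bases, and the starts lie 12918 bases apart. In each, the match begins 104 bases before the start. A promoter was found for 11 of the 15 heat shock and chaperone genes higher in liver, and 4 of the 11 (36.4%) held the core: Hspa1a, Hspa1b, Dnaja1 and Dnajb6. The core was present in 6.69% of all 32851 promoters in the table and in 6.2% of the 9771 genes tested here that have a promoter. Because the Hspa1a and Hspa1b windows are near-identical, their matches are not independent. A longer heat shock element of 3 units was held by 1 of the 11, Dnajb6. Other motifs, described with the immediate early genes below, were also found in these 11 promoters. The short cAMP response element was held by 5 (45.5%, against 30.8% of the genes tested). The AP-1 site was held by 3 (27.3%, against 5.18%). A match of letters is a description and shows no binding.

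Of 29 tested heat shock and chaperone genes, 15 were higher in liver (51.7%, against 7.61% over all genes) and 3 were lower, and their median log2 fold change was 0.55. The Hsp40 co-chaperone Dnajb1, which hands clients to Hsp70, stood at 269.9, 242 and 265 TPM in liver and 41.5, 41.3 and 41.2 TPM in spleen (log2 fold change 2.62 with SE 0.10, adjusted p = 8.64e-06). Hsph1, a nucleotide exchange factor of Hsp70, stood at 532, 505 and 488 TPM in liver and 124, 116 and 125 TPM in spleen (log2 fold change 2.05 with SE 0.074, adjusted p = 8.64e-06). The groups did not overlap for either gene. Hsp90aa1, the inducible Hsp90, was 2.81-fold higher at 1427 ± 164 TPM in liver and 508 ± 18.5 TPM in spleen (mean ± SD, n = 3 here and below). Hsp90ab1, its constitutive counterpart, was 1.32-fold higher (log2 fold change 0.40 with SE 0.061, adjusted p = 0.00626), a smaller difference, and its call was lost without limma's trend and robust settings (adjusted p = 0.12, the highest over its alternatives). Hspa8, the constitutive Hsp70 and the most abundant gene named in this group, was 2-fold higher at 3147 ± 34.4 TPM in liver and 1574 ± 61.5 TPM in spleen. Ubb, which supplies ubiquitin for protein disposal, was 1.68-fold higher. Dnajb4, Hsf2 and Dnaja1 had log2 fold changes of 1.54, 1.31 and 1.11.

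The 3 lower members, Stip1, Fkbp4 and Ahsa1, are co-chaperones of Hsp90. Their log2 fold changes were small at -0.57, -0.55 and -0.37. Each call was lost when any 1 spleen library was left out, with adjusted p up to 0.0933, 0.0916 and 0.143 over the alternatives, and with the trend on transcript length removed the list held 15 higher and 1 lower gene. At the other sites, Hspa1a stood at a mean of 2.68 TPM in lymph node, 124 TPM in lung, 146 TPM in bone marrow and 7.81 TPM in peripheral blood, and liver was the highest of the 6 sites.

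Immediate early genes had the highest median of the 26 lists of pathways and functions, which leave out the cell type markers. These genes are switched on within a short time of an antigen receptor, growth factor or stress signal, and many encode transcription factors of the AP-1 family (Fos and Jun proteins) or the Nr4a orphan receptors. Of 35 tested members, 28 were higher in liver (80% of members) and 2 were lower, with a median log2 fold change of 2.17 against -0.07 over all genes. Nr4a1, an orphan nuclear receptor that T cells induce on antigen receptor signalling, stood at 3227, 3198 and 3444 TPM in liver and 206, 221 and 218 TPM in spleen (log2 fold change 3.93 with SE 0.056, adjusted p = 2.28e-07). Its relatives Nr4a2 and Nr4a3 were 15.1-fold and 8.94-fold higher. All 3 members of the Nr4a family were thus higher in liver, with no overlap between groups. Nr4a1 was at a mean of 237 TPM in lymph node, 786 TPM in lung, 557 TPM in bone marrow and 627 TPM in peripheral blood at the other sites.

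Among the AP-1 genes, Fosl2 stood at 123, 111 and 146 TPM in liver and 7.07, 4.48 and 3.66 TPM in spleen (log2 fold change 4.43 with SE 0.24, adjusted p = 4.66e-05). Junb, the most abundant AP-1 gene named here, stood at 2266, 2494 and 2708 TPM in liver and 403, 399.7 and 389.8 TPM in spleen (log2 fold change 2.64 with SE 0.071, adjusted p = 2.76e-06). Jun stood at 344, 356 and 385 TPM in liver and 42.5, 41 and 41.7 TPM in spleen (log2 fold change 3.08 with SE 0.09, adjusted p = 4.75e-06), and Fosb was 7.23-fold higher. Each had groups that did not overlap. Fos itself differed less, 2.75-fold at 369 ± 55.3 TPM in liver and 134 ± 10 TPM in spleen. Atf3, a stress-induced partner of AP-1 proteins, was higher at 53.1 ± 10.9 TPM in liver and 2.3 ± 0.689 TPM in spleen (log2 fold change 4.04 with SE 0.26, adjusted p = 0.000109). Batf, an AP-1 factor of effector T cells, did not pass the test at 136 ± 6.11 TPM in liver and 116 ± 5.13 TPM in spleen (adjusted p = 0.131), but did with the trend on transcript length removed (log2 fold change 0.56, adjusted p = 0.00743).

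The Egr genes did not follow. Egr2 and Egr3, zinc finger factors induced by antigen receptor signals, were the 2 lower members of the list. Egr2 stood at 3.02, 6.36 and 4.06 TPM in liver and 21.7, 21.7 and 18.5 TPM in spleen (log2 fold change -2.02 with SE 0.28, adjusted p = 0.00451), and Egr3 stood at 3.78, 6.21 and 7.22 TPM in liver and 20.5, 17.9 and 17.3 TPM in spleen (log2 fold change -1.57 with SE 0.27, adjusted p = 0.01). Egr1 and Myc did not pass the test, with log2 fold changes of 0.36 and -0.23. Nr4a and Egr genes are both commonly read as markers of antigen receptor signalling, and here they differed in opposite directions. The call of Egr3 was lost without spleen replicate 1 or 2 (adjusted p up to 0.0606 over the alternatives).

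Genes that damp signalling were also among the higher members. Dusp1, Dusp4 and Dusp5, phosphatases that switch off MAP kinases, were 6.45-fold, 8.72-fold and 7.95-fold higher. Dusp1 was the most tightly measured of them at 963, 964 and 978 TPM in liver and 148, 155 and 147 TPM in spleen. Rgs2 and Rgs1, which shorten signalling by G protein-coupled receptors, were 10.3-fold and 3.46-fold higher. Ppp1r15a, which reverses the phosphorylation of eIF2alpha, stood at 576, 511 and 612 TPM in liver and 42.8, 47.5 and 63.9 TPM in spleen (log2 fold change 3.45 with SE 0.16, adjusted p = 2.29e-05). Klf6 and Klf4, zinc finger factors of the Kruppel-like family, had log2 fold changes of 3.02 and 3.10, and Gadd45b, a stress-induced signalling protein, had 3.01. Across the 6 sites, Nr4a1, Nr4a2, Jun, Junb, Dusp4, Rgs1, Ppp1r15a, Klf6 and Gadd45b had their highest mean in liver. The other higher members named so far did not. The highest mean was in bone marrow for Fos (2198 TPM), Fosb (362 TPM) and Dusp1 (1201 TPM). It was in lung for Fosl2 (370 TPM), Nr4a3, Dusp5 and Rgs2, and in peripheral blood for Atf3 (84.3 TPM) and Klf4.

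Promoters of 3 immediate early genes are shown because they hold TGACG, the most frequent of the motifs searched in this group. TGACG is the short form of the cAMP response element. Each is the 250 bases before the RefSeq transcript start on GRCm38.p6, 5′ to 3′ on the gene's strand, and capitals mark TGACG or its reverse complement CGTCA.
Nr4a1 promoter, chr15:101266596-101266845, plus strand: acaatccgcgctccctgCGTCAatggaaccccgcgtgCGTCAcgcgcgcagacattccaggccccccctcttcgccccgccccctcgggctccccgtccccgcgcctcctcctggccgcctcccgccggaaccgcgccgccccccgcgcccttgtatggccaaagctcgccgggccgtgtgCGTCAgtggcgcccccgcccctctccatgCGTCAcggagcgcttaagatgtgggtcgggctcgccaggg
Nr4a2 promoter, chr2:57124004-57124253, minus strand: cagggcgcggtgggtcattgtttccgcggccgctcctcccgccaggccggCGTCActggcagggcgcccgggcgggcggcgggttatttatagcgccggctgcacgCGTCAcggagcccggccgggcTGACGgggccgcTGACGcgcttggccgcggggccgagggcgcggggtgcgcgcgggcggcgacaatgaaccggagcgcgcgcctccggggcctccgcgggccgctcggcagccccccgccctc
Ppp1r15a promoter, chr7:45526269-45526518, minus strand: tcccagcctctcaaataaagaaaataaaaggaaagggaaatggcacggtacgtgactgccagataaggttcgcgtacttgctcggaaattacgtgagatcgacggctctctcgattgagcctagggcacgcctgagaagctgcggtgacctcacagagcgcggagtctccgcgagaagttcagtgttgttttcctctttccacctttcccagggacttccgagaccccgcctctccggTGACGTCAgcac
Nr4a1 and Nr4a2 each held 4 matches, and Ppp1r15a held the full palindrome TGACGTCA, which contains the short form on both strands. Of 28 immediate early genes higher in liver, 25 had a promoter in the table and 17 of these (68%) held TGACG, against 30.8% of the genes tested here and 17.8% of all promoters. The full form was present in 4 of the 25 (16%) and in 3.03% of the genes tested. TGANTCA, the AP-1 site, was present in 1 of the 25 and in 5.18% of the genes tested. In the cAMP response list, described below, 8 of the 11 genes higher in liver had a promoter in the table. Of these 8, 4 (50%) held TGACG and 0 held the full form. The motifs were chosen after the expression values had been seen, and no match says only that the letters are not in this window.

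**Figure D2:**
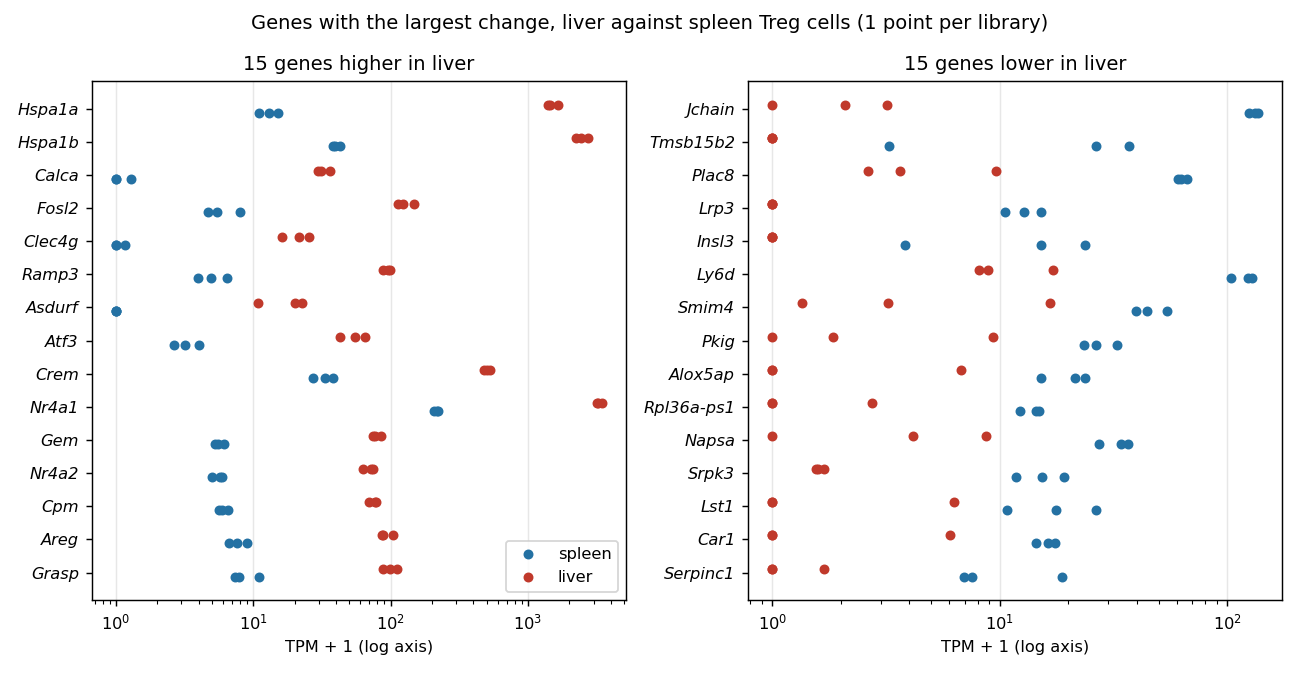
TPM + 1 on a log axis for the 15 top-ranked genes per direction, with 1 point for each liver (red) and spleen (blue) library. In the left panel every liver point lies above every spleen point, from Hspa1a at 1397 to 1640 TPM in liver downward, and in the right panel several genes are listed at 0 in liver.

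Genes of the cAMP pathway formed a related group. Cyclic AMP carries signals from receptors such as those for adenosine, prostaglandin E2 and calcitonin gene-related peptide to CREB-family factors. Of 20 tested members, 11 were higher in liver (55%, against 7.61% over all genes) and none were lower, with a median log2 fold change of 0.96. Crem, a CREB-family factor with activating and repressing isoforms, stood at 476, 529 and 504 TPM in liver and 26.2, 37 and 32.2 TPM in spleen (log2 fold change 3.95 with SE 0.14, adjusted p = 8.48e-06). Ramp3, a subunit of adrenomedullin and calcitonin-family receptors, stood at 87, 97.7 and 94.2 TPM in liver and 2.98, 3.91 and 5.39 TPM in spleen (log2 fold change 4.23 with SE 0.22, adjusted p = 3.68e-05). Neither gene's groups overlapped. Calcrl, the receptor that pairs with Ramp3, did not pass the test at 14.9 ± 3.52 TPM in liver and 8.67 ± 1.93 TPM in spleen (adjusted p = 0.125). Calca, which encodes calcitonin and calcitonin gene-related peptide, ranked among the 15 top genes higher in liver and stood at 28.6, 30.3 and 35 TPM in liver and 0.28, 0 and 0 TPM in spleen.

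The kinase gene Sik1, induced by cAMP and known to damp the response, was 7.55-fold higher, and the phosphodiesterases Pde4d and Pde4b, which break down cAMP, were 2.59-fold and 2.23-fold higher. Liver was not the highest site for this group's leading genes: the lung mean was 1337 TPM for Crem and 783 TPM for Ramp3.

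Genes of the NF-kappaB group were higher in liver or did not pass the test. NF-kappaB is a family of dimeric factors that act downstream of antigen and TNF receptors, and several of its targets encode its own inhibitors. Of 21 tested members, 11 were higher in liver (52.4%) and none were lower, with a median of 0.48. Tnfaip3 (A20), a ubiquitin-editing enzyme that shuts the pathway off, stood at 1029, 914 and 940.4 TPM in liver and 92.8, 89.8 and 82 TPM in spleen (log2 fold change 3.43 with SE 0.082, adjusted p = 1.47e-06). Nfkbia, the inhibitor IkappaB-alpha, stood at 888, 828 and 928 TPM in liver and 297, 305 and 287 TPM in spleen (log2 fold change 1.57 with SE 0.066, adjusted p = 1.7e-05). Both rose without overlap between groups. The nuclear inhibitors Nfkbid and Nfkbiz were 3.19-fold and 2.52-fold higher. Of the subunits, Rel (c-Rel), which Treg cells need to develop, was 3.36-fold higher (log2 fold change 1.70 with SE 0.15, adjusted p = 0.000458). Nfkb1, Nfkb2 and Relb did not pass, with log2 fold changes of -0.084, -0.25 and -0.32.

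Glucocorticoid-response genes, known targets of the steroid receptor Nr3c1, overlap these groups in membership. Of 18 tested, 11 were higher (61.1%) and 1 was lower (5.56%), with a median of 1.18. Sgk1, a salt- and steroid-induced kinase, was 7.13-fold higher, and Nr3c1 itself was 2.82-fold higher at 133 ± 8.2 TPM in liver and 47.3 ± 3.38 TPM in spleen. Tsc22d3 (GILZ) was 1.9-fold higher, but Fkbp5, another classical target, did not pass the test at 39.4 ± 4.9 TPM in liver and 52.9 ± 6.25 TPM in spleen (adjusted p = 0.12). Errfi1 was 6.56-fold higher. Of 19 genes of mRNA decay, 10 were higher (52.6%) and none were lower. They were led by Zfp36 (tristetraprolin, which destabilises cytokine messages) at 618 ± 14.8 TPM in liver and 145 ± 2.87 TPM in spleen. Tob2, Btg2 and Tob1, antiproliferative adaptors of the deadenylase complex, were 3.48-fold, 3.31-fold and 2.93-fold higher.

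**Figure D3:**
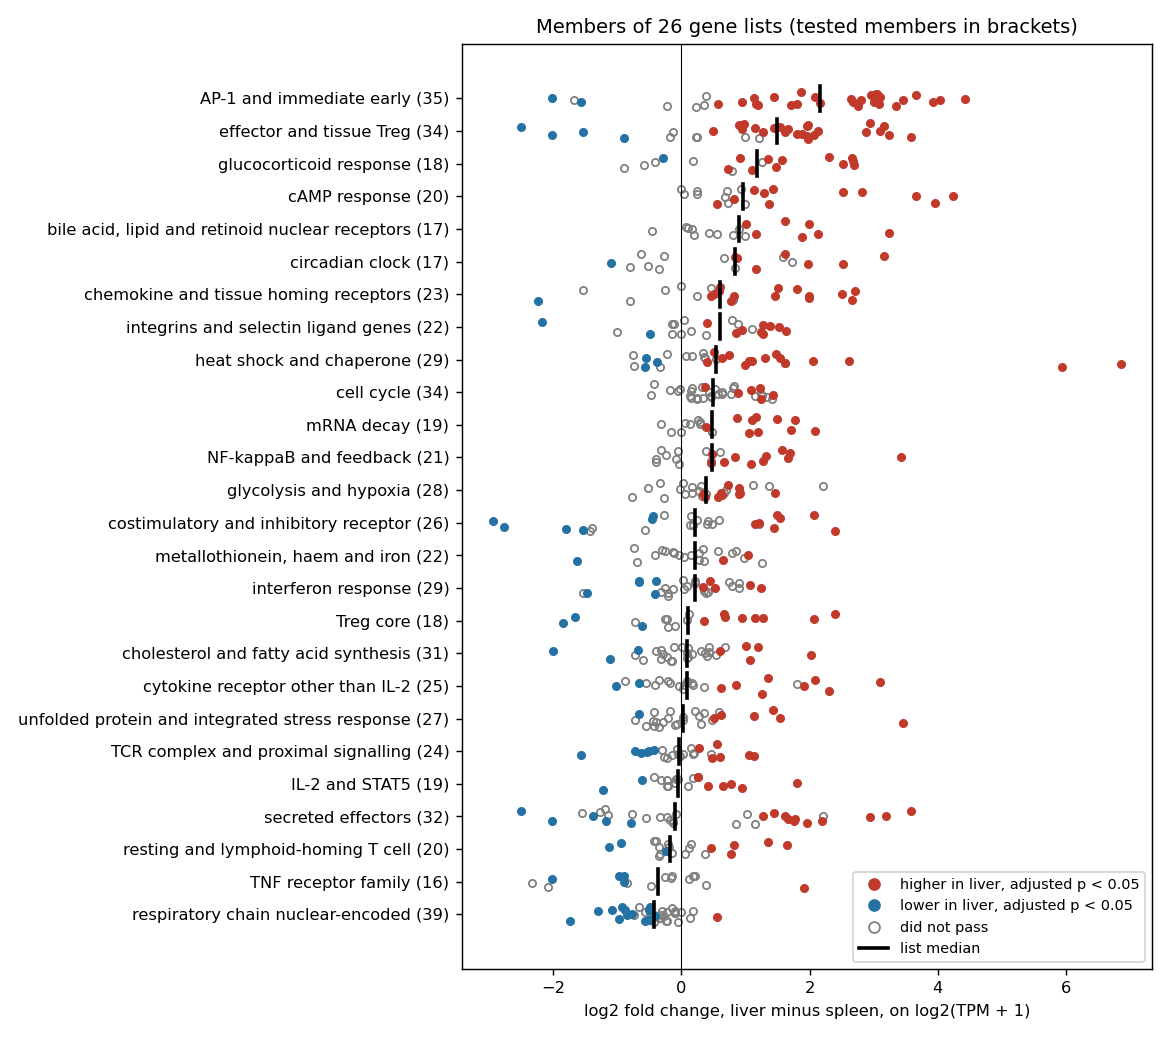
Log2 fold change, liver minus spleen on log2(TPM + 1), of the tested members of 26 gene lists. Each point is a gene, filled red where higher and blue where lower at an adjusted p under 0.05, and the black bar is the list median, from 2.17 for immediate early genes to -0.43 for the respiratory chain.

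The genes that define Treg cells differed in both directions. Of 18 core Treg genes, 8 were higher in liver (44.4%), 3 were lower (16.7%) and 7 did not pass, with a median log2 fold change of 0.11. Ctla4, the inhibitory receptor that strips B7 ligands from antigen-presenting cells, stood at 987, 1125 and 1082 TPM in liver and 210.1, 187 and 205 TPM in spleen (log2 fold change 2.40 with SE 0.077, adjusted p = 6.49e-06). Icos, a costimulatory receptor of effector Treg cells, stood at 299, 314 and 291 TPM in liver and 77, 66.2 and 69.7 TPM in spleen (log2 fold change 2.07 with SE 0.094, adjusted p = 2.27e-05). Groups did not overlap for either. The checkpoint receptor Tigit was 2.23-fold higher, and Lrrc32 (GARP), which holds latent TGF-beta on the cell surface, was 1.95-fold higher. Ikzf2 (Helios) and Nrp1 (neuropilin 1), often used as marks of thymus-derived Treg cells, were 1.6-fold and 1.61-fold higher. With the trend on transcript length removed, the call of Ikzf2 was lost (adjusted p = 0.0572, the highest over its alternatives).

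Izumo1r, the folate receptor FR4 and the core gene with the largest fall, stood at 192, 152 and 243 TPM in liver and 694, 734 and 662 TPM in spleen (log2 fold change -1.85 with SE 0.16, adjusted p = 0.000458). Gpr83, a receptor of the G protein-coupled class, stood at 14.9, 10.9 and 16.2 TPM in liver and 48, 42.7 and 46.8 TPM in spleen (log2 fold change -1.66 with SE 0.19, adjusted p = 0.0019). Il2ra (CD25), the high-affinity chain of the IL-2 receptor, stood at 68, 95.9 and 89 TPM in liver and 132, 125 and 127 TPM in spleen (log2 fold change -0.61 with SE 0.14, adjusted p = 0.0301). All 3 were lower without overlap, but the call of Il2ra was lost when any 1 spleen library was left out (adjusted p up to 0.117 over the alternatives). Tnfrsf18 (GITR) and Tnfrsf4 (OX40), TNF receptors of Treg cells, did not pass, at log2 fold changes of -0.26 and 0.12. With the length trend removed these were 0.0088 and 0.40, and Tnfrsf4 passed (adjusted p = 0.0215). The ectoenzymes Nt5e (CD73) and Entpd1 (CD39), which turn extracellular ATP into adenosine, did not pass either, at -0.10 and -0.71.

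Genes of effector and tissue Treg cells were mostly higher. Of 34 tested members, 24 were higher in liver (70.6%) and 4 were lower, with a median log2 fold change of 1.49. Il1rl1 (ST2), the receptor for interleukin-33, stood at 152, 179.7 and 136 TPM in liver and 19.1, 19 and 14.1 TPM in spleen (log2 fold change 3.10 with SE 0.17, adjusted p = 5.53e-05). Areg, amphiregulin, a growth factor of tissue repair, stood at 86.8, 103 and 85.2 TPM in liver and 5.71, 6.59 and 7.93 TPM in spleen (log2 fold change 3.58 with SE 0.18, adjusted p = 3.32e-05). Both had groups that did not overlap. Among the transcription factors, Rora was 10.1-fold higher at 128 ± 11.3 TPM in liver and 12.6 ± 1.45 TPM in spleen, Bhlhe40 was 9.08-fold higher at 368 ± 24.1 TPM in liver and 40.5 ± 4.74 TPM in spleen, and Gata3 was 2.23-fold higher at 118 ± 6.89 TPM in liver and 53 ± 4.88 TPM in spleen. Pparg was low in both groups, at 8.94, 8.23 and 10.2 TPM in liver and 1.31, 2.12 and 0.69 TPM in spleen (log2 fold change 2.13 with SE 0.35, adjusted p = 0.00788).

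Nfil3, Id2, Ahr and Tbx21, further regulators of effector differentiation, had log2 fold changes of 1.98, 1.98, 1.88 and 1.62. Tbx21 encodes T-bet, the factor of type 1 immunity, and liver was the highest of the 6 sites at 23.4 ± 3.87 TPM in liver and 6.94 ± 1.04 TPM in spleen. Cd69, an early activation marker that also keeps cells in tissue, stood at 317, 399 and 346 TPM in liver and 85.2, 91.9 and 91.3 TPM in spleen (log2 fold change 1.97 with SE 0.11, adjusted p = 4.39e-05). Klrg1, a receptor of terminally differentiated Treg cells, was 2.92-fold higher, and Rgs16 was 7.63-fold higher. The 4 lower members were Gzma, Tnfrsf8 (CD30), Lag3 and Tnfrsf9 (4-1BB). Lag3, a checkpoint receptor that binds MHC class II, stood at 11.3, 10.6 and 7.64 TPM in liver and 33.7, 29 and 27.4 TPM in spleen (log2 fold change -1.53 with SE 0.21, adjusted p = 0.00432). Tnfrsf9 was at 62.1 ± 16.5 TPM in liver and 114 ± 8.31 TPM in spleen, and its call was lost without any 1 spleen library or without liver replicate 2 (adjusted p up to 0.0916 over the alternatives), as was that of Tnfrsf8 (up to 0.116). Pdcd1 (PD-1) did not pass, at 139.5 ± 7.24 TPM in liver and 117 ± 4.44 TPM in spleen (adjusted p = 0.107), but did with the length trend removed (log2 fold change 0.43, adjusted p = 0.0225) and when scaled on T cell genes (0.34, adjusted p = 0.0406).

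Receptors that guide Treg cells into tissues formed another mostly higher group. Of 23 tested chemokine and homing receptors, 14 were higher in liver (60.9%) and 1 was lower (4.35%), with a median of 0.60. Cxcr6, the receptor for the membrane-bound chemokine Cxcl16 of liver sinusoids, stood at 109.7, 129 and 107 TPM in liver and 17.1, 17.8 and 15.6 TPM in spleen (log2 fold change 2.70 with SE 0.14, adjusted p = 3.79e-05). Cxcr4, the receptor for Cxcl12, stood at 603, 597 and 532 TPM in liver and 90.3, 98 and 84.1 TPM in spleen (log2 fold change 2.66 with SE 0.092, adjusted p = 8.48e-06). Ccr2, the receptor for Ccl2, stood at 116, 155 and 120.4 TPM in liver and 20, 21.8 and 24.6 TPM in spleen (log2 fold change 2.50 with SE 0.16, adjusted p = 0.000103). In each case every liver library lay above every spleen library. Ccr2 is also a monocyte gene, and the 16 monocyte and neutrophil markers, Ccr2 included, summed to 370 to 569 TPM in liver and 758 to 941 TPM in spleen.

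Ccr8 and Ccr4, receptors of effector Treg cells, were 3.6-fold and 2.9-fold higher. Gpr15, a receptor known for homing to the gut, was 4.2-fold higher at 49.6 ± 1.61 TPM in liver and 11.8 ± 0.799 TPM in spleen. Cxcr3, a receptor for interferon-induced chemokines, differed less, at 0.51, and its call was lost without spleen replicate 1 or 3 (adjusted p up to 0.0908 over the alternatives). Cxcr5, which draws T and B cells to B cell follicles, was the lower member, at 8.23, 22.6 and 12.3 TPM in liver and 52.5, 74.8 and 71.9 TPM in spleen (log2 fold change -2.23 with SE 0.34, adjusted p = 0.00645). B cells also express Cxcr5, and the B cell marker sum moved in the same direction (406 to 461 TPM in liver, 2002 to 2069 TPM in spleen). Its part in the value of Cxcr5 was not tested. Among the 6 sites, Cxcr6, Gpr15 and Ccr8 had their highest mean in liver, while Cxcr4 and Ccr2 did not.

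Of 22 tested integrin and selectin ligand genes, 9 were higher (40.9%) and 2 were lower (9.09%, near the 7.97% of all genes). Itgb1, the common beta 1 chain, stood at 628, 707 and 673 TPM in liver and 234, 232 and 228 TPM in spleen (log2 fold change 1.53 with SE 0.068, adjusted p = 2.03e-05). Itga4, Itgav and Itgb3 were 1.82-fold, 2.49-fold and 3.21-fold higher. Itgae (CD103), which binds E-cadherin on epithelium, was 2.48-fold higher at 44.4 ± 4.04 TPM in liver and 17.9 ± 3.13 TPM in spleen. Itgal, the alpha chain of LFA-1, was lower at 207 ± 18.9 TPM in liver and 292 ± 6.87 TPM in spleen (log2 fold change -0.49 with SE 0.087, adjusted p = 0.011), and its call was lost without any 1 spleen library (adjusted p up to 0.082 over the alternatives).

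Genes of resting and lymphoid-homing T cells did not move as a block. Of 20 tested members, 5 were higher in liver (25%) and 3 were lower (15%), with a median of -0.17. Klf2, the factor that keeps T cells circulating, stood at 595, 611 and 724 TPM in liver and 199.9, 217 and 193 TPM in spleen (log2 fold change 1.65 with SE 0.095, adjusted p = 6.24e-05). S1pr1, the receptor for exit from tissue that Klf2 is known to drive, was 1.73-fold higher at 284 ± 28.4 TPM in liver and 164 ± 5.77 TPM in spleen. Il7r, the receptor for interleukin-7, stood at 193, 207 and 189 TPM in liver and 74.5, 72.9 and 80.6 TPM in spleen (log2 fold change 1.36 with SE 0.093, adjusted p = 0.000142). Each of these was higher in liver with no overlap, although Klf2 and S1pr1 are usually described as low in resident cells. Lef1 did not pass at -0.19. Id3 and Igfbp4 were lower, at -0.94 and -1.13. Leaving out spleen replicate 1 lost the call of Igfbp4 (adjusted p = 0.0521, the highest over its alternatives). The calls of Ccr7 (0.46), Klf3 (0.82) and Tcf7 (-0.24) were each lost in 8 or more alternatives, with adjusted p up to 0.118, 0.124 and 0.261.

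Secreted products differed in both directions: 11 of 32 tested were higher (34.4%), 5 were lower (15.6%), and the median was -0.10 (0.16 with the length trend removed). Ifng, the cytokine of type 1 immunity, stood at 81.7, 81.8 and 68 TPM in liver and 10.3, 7.27 and 5.53 TPM in spleen (log2 fold change 3.20 with SE 0.23, adjusted p = 0.000198). Gzmb, a serine protease used in killing, stood at 58, 43.3 and 53.6 TPM in liver and 8.1, 3.59 and 6.61 TPM in spleen (log2 fold change 2.94 with SE 0.29, adjusted p = 0.000862). Il10, an inhibitory cytokine, stood at 27.9, 29.7 and 25 TPM in liver and 9.5, 9.59 and 5.43 TPM in spleen (log2 fold change 1.67 with SE 0.25, adjusted p = 0.00609). All 3 were higher without overlap. The 17 cytotoxic T and NK markers summed to 595 to 647 TPM in liver and 353 to 387 TPM in spleen. Much of this was Ccl5, at 401 ± 54.8 TPM in liver and 164.5 ± 6.1 TPM in spleen. Of 15 tested markers, 2 were higher (Ccl5 and Gzmb) and 3 were lower, with a median log2 fold change of -1.345. Among the defining markers of that list, Cd8a was lower, at 5.19, 2.46 and 1.78 TPM in liver and 12.7, 10.8 and 14.6 TPM in spleen. Klre1 was listed at 0 in all liver libraries. Gzma, a protease of the same cells, was also lower, at 5.24, 5.77 and 1.12 TPM in liver and 24, 22.1 and 27.1 TPM in spleen (log2 fold change -2.50 with SE 0.46, adjusted p = 0.0121). The calls of Cd8a and Gzma were lost without any 1 spleen library (adjusted p up to 0.0902 and 0.066 over the alternatives).

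Tnf was 3.13-fold higher, whereas its relatives Ltb and Lta were lower. Ltb, the membrane lymphotoxin that organises lymphoid tissue, stood at 502, 472 and 516 TPM in liver and 1130.4, 1064 and 1154 TPM in spleen (log2 fold change -1.17 with SE 0.06, adjusted p = 3.77e-05). Lta stood at 23.8, 17 and 15.8 TPM in liver and 43.4, 47.2 and 60.9 TPM in spleen (log2 fold change -1.38 with SE 0.21, adjusted p = 0.00661). B cells also make lymphotoxin, and whether the higher B cell marker sum in spleen enters these values was not tested. The galectins Lgals1 and Lgals3 were 2.73-fold and 3.4-fold higher, and the call of Lgals3 was lost without spleen replicate 1 (adjusted p = 0.0531, the highest over its alternatives). Fgl2, a secreted suppressive protein, was 4.08-fold higher. Tgfb1 did not pass, at 117 ± 14.1 TPM in liver and 127 ± 11.5 TPM in spleen (adjusted p = 0.521).

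On the receiving side, 25 cytokine receptors other than that for IL-2 were tested, with a median of 0.09. Of these, 8 were higher (32%) and 2 were lower (8%, near the 7.97% of all genes). Il18r1 and Il18rap, the 2 chains of the interleukin-18 receptor, were 3.84-fold and 5.27-fold higher. Ifngr1, the ligand-binding chain of the interferon-gamma receptor, stood at 619, 648 and 594 TPM in liver and 144, 137 and 155 TPM in spleen (log2 fold change 2.09 with SE 0.077, adjusted p = 8.64e-06). Il9r was 2.48-fold higher. With Il1rl1, the receptors for interleukin-33 and interleukin-18 were thus both higher in liver. In the IL-2 and STAT5 list, 6 of 19 were higher (31.6%) and 2 were lower (10.5%). Pim1, a kinase induced by STAT5, was 3.5-fold higher, Cish, a feedback inhibitor, was 1.73-fold higher, and Socs1, another feedback inhibitor, was lower at 12.4 ± 2.88 TPM in liver and 29.9 ± 5.51 TPM in spleen. The call of Socs1 was lost without spleen replicate 1 or 3 (adjusted p up to 0.0815 over the alternatives). Il2rb did not pass at -0.23, but did with the length trend removed (-0.29, adjusted p = 0.0455) and with abundant classes removed (-0.31, adjusted p = 0.0339).

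Costimulatory and inhibitory receptors split, with 7 of 26 (26.9%) higher and 6 (23.1%) lower (11 and 5 when scaled on T cell genes). Besides Ctla4, Icos, Tigit and Klrg1, the higher members were Cd28, the classical costimulatory receptor, at 214 ± 32.1 TPM in liver and 77.8 ± 3.26 TPM in spleen, Cd226, an activating partner of Tigit, at 223 ± 64.3 TPM in liver and 94.7 ± 19.3 TPM in spleen, and Cd200r1 at 73.4 ± 9.62 TPM in liver and 25.3 ± 2.79 TPM in spleen. Cd200, an inhibitory ligand, was lower at 30.2 ± 16.5 TPM in liver and 99 ± 13.1 TPM in spleen, and Cd160 was lower at 3.45, 0 and 1.58 TPM in liver and 16.5, 18.1 and 9.71 TPM in spleen. The calls of Cd200 and Cd160 were lost without any 1 spleen library, and that of Cd226 without spleen replicate 1 or 3 (adjusted p up to 0.0697, 0.094 and 0.0656 over the alternatives). Of 16 TNF receptor family genes, 1 was higher (6.25%, near the 7.61% of all genes) and 4 were lower (25%), with a median of -0.36. The higher gene was Tnfrsf10b, a death receptor for TRAIL, at 17.4 ± 1.87 TPM in liver and 3.93 ± 1 TPM in spleen. Cd27, a costimulatory receptor, was lower at 244 ± 53.4 TPM in liver and 447 ± 3.06 TPM in spleen (log2 fold change -0.90 with SE 0.15, adjusted p = 0.00976), and its call was lost without spleen replicate 1 or 3 (adjusted p up to 0.0518 over the alternatives).

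**Figure D4:**
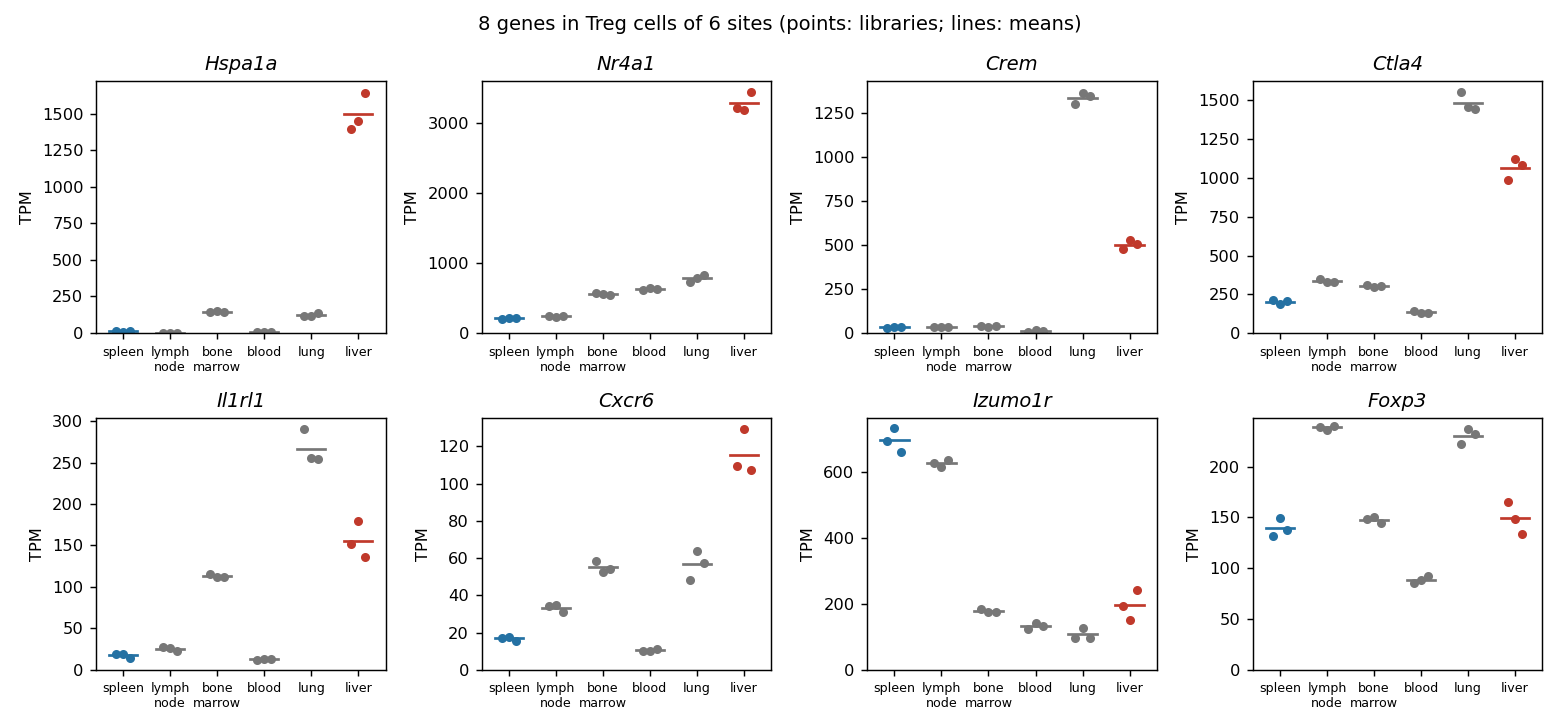
TPM of 8 genes in Treg cells of 6 sites, with 1 point per library and a line at the mean of each site. Liver is the highest site for Hspa1a, Nr4a1 and Cxcr6, lung is higher than liver for Crem, Ctla4 and Il1rl1, spleen is highest for Izumo1r, and Foxp3 in liver lies among the other sites.

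In the antigen receptor list, 6 of 24 genes were higher (25%) and 6 were lower (25%). Ptpn6 (SHP-1), a phosphatase that restrains receptor signals, stood at 86, 90.6 and 80.8 TPM in liver and 258, 260.4 and 246 TPM in spleen (log2 fold change -1.56 with SE 0.087, adjusted p = 5.28e-05). B and myeloid cells also express Ptpn6, and their part in this value was not tested. The adaptor Lat, the kinase Zap70 and the kinase Lck were lower, at log2 fold changes of -0.63, -0.54 and -0.42. The call of Zap70 was lost without limma's trend and robust settings (adjusted p = 0.0559, the highest over its alternatives), and that of Lck without spleen replicate 2 or 3 or with the length trend removed (adjusted p up to 0.118 over the alternatives). Themis and Sla, which tune receptor signalling, were higher at 1.13 and 1.05. Cd3d was lower at 288 ± 47.7 TPM in liver and 404 ± 22.1 TPM in spleen, but its call was lost in 8 alternatives, any 1 spleen library or liver replicate 3 left out among them (adjusted p up to 0.191).

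Metabolic lists showed smaller differences. Of 28 glycolysis and hypoxia genes, 10 were higher (35.7%) and none were lower, with a median of 0.38. The glycolytic enzymes Gapdh and Tpi1 were 1.54-fold and 1.88-fold higher, the glucose transporter Slc2a3 was 1.91-fold higher, and Hif1a, the oxygen-sensitive factor, was 1.88-fold higher. Of 31 genes of cholesterol and fatty acid synthesis, 5 were higher (16.1%) and 3 were lower (9.68%, near the 7.97% of all genes). Insig1, a sterol sensor that holds SREBP in the endoplasmic reticulum, stood at 73.8, 103 and 95.8 TPM in liver and 21.1, 25.9 and 17.6 TPM in spleen (log2 fold change 2.03 with SE 0.20, adjusted p = 0.000801), and Scd1, a fatty acid desaturase, stood at 6.51, 2.64 and 5.41 TPM in liver and 21, 21.6 and 21.3 TPM in spleen (log2 fold change -1.99 with SE 0.31, adjusted p = 0.00668). The groups did not overlap for either.

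The nuclear receptor list, chosen for ligands that are common in liver, also holds enzymes and Ahr (the aryl hydrocarbon receptor), which is of another family. Of its 26 genes, 17 were tested, 7 were higher (41.2%) and none were lower. Rora, Pparg and Ahr were among the higher genes. The calls of Nr1d1 and Tiparp, also higher, were lost in 7 and 5 alternatives (adjusted p up to 0.116 and 0.107). Ahr was 4.14-fold higher at 24.1 ± 3.15 TPM in liver and 5.83 ± 0.808 TPM in spleen. Of 17 clock genes, 7 were higher (41.2%) and 1 was lower (5.88%). Per1, which is also a cAMP and glucocorticoid target, was 6.03-fold higher, and Dbp, an output gene of the clock, was lower at 15, 14.4 and 15.2 TPM in liver and 34.5, 32.1 and 32.1 TPM in spleen (log2 fold change -1.09 with SE 0.15, adjusted p = 0.0044). The time of day of collection is not given in the sources used here.

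Of 34 cell cycle genes, 6 were higher (17.65%) and none were lower, with a median of 0.50. Mki67, a marker of cycling cells, stood at 33.7, 31.5 and 32.8 TPM in liver and 13.8, 13.3 and 13.2 TPM in spleen (log2 fold change 1.22 with SE 0.15, adjusted p = 0.00286), and Rrm2, a subunit of ribonucleotide reductase, was 2.5-fold higher. Of 29 interferon-response genes, 5 were higher (17.2%) and 5 were lower (17.2%). Ifit1 and Isg15, antiviral proteins, were 2.47-fold and 2.1-fold higher, while Usp18, which removes Isg15 from proteins, was lower at 8.75 ± 2.87 TPM in liver and 25.6 ± 5.05 TPM in spleen (log2 fold change -1.47 with SE 0.28, adjusted p = 0.0148). The call of Usp18 was lost without spleen replicate 1 or 2 (adjusted p up to 0.0794 over the alternatives). In the unfolded protein list, 6 of 27 (22.2%) were higher and 1 (3.7%) was lower. In the metallothionein, haem and iron list, 2 of 22 (9.09%) were higher and 1 (4.55%) was lower. The shares of this last list are near the 7.61% and 7.97% of all genes. Its lower gene was Hmox1, which breaks down haem, at 3.84, 4.99 and 5.45 TPM in liver and 18.3, 13.6 and 18.4 TPM in spleen (log2 fold change -1.62 with SE 0.25, adjusted p = 0.00652), lower in liver although haemoglobin messages were higher there. Macrophages also express Hmox1, and their part in this value was not tested.

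Change depended on transcript length. Among genes of at least 10 TPM in both groups, those with a longest annotated transcript of up to 1000 bases had a median log2 fold change of -0.33, and those above 6000 bases had a median of 0.24. In the shortest class 6.13% were called higher and 21.6% lower, and in the longest class 18.1% were called higher and 1.82% lower. Ribosomal protein genes, which are short and abundant, held 21.3% to 22.9% of TPM in liver and 27.2% to 27.4% in spleen. For genes named in the text, a change of call with this trend removed is stated beside the gene or counted among its lost calls.

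**Figure D5:**
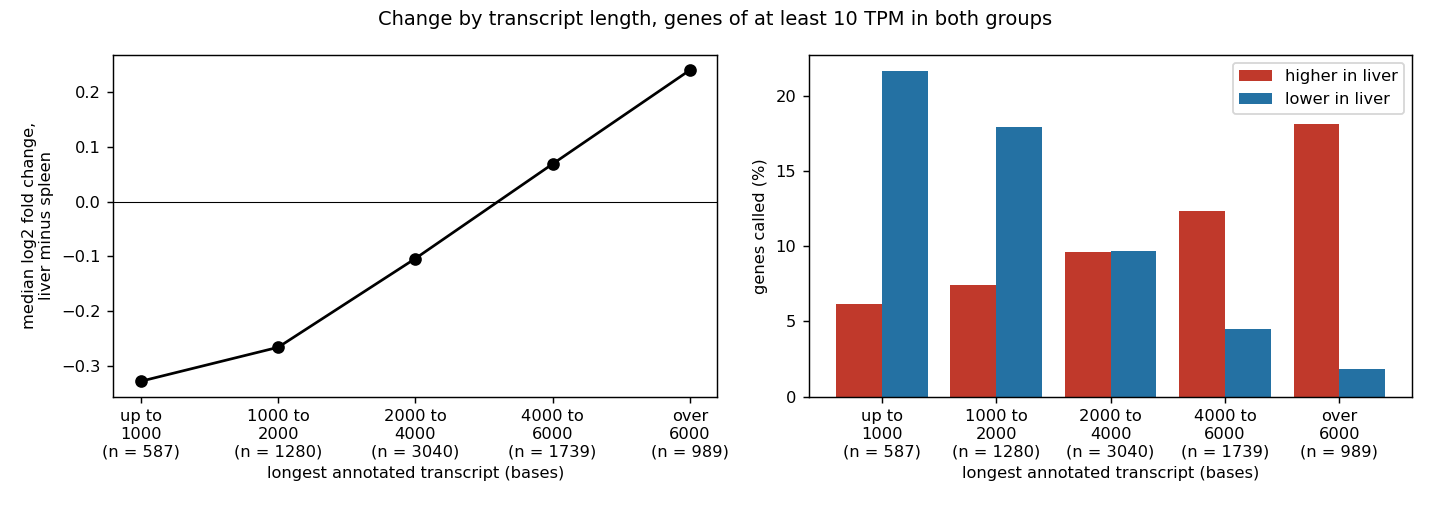
Genes of at least 10 TPM in both groups, sorted into 5 classes by the length of the longest annotated transcript. The left panel gives the median log2 fold change, rising from -0.33 to 0.24, and the right panel gives the percentage of genes called higher (red) and lower (blue) in liver, with the number of genes under each class.

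Nuclear-encoded genes of the respiratory chain, most of which are short, had the lowest median of the 26 lists of pathways and functions. Of 39 tested, 1 was higher and 14 were lower (35.9%, against 7.97% over all genes), with a median log2 fold change of -0.43. With the length trend removed, 2 were higher and 6 were lower, and the median was -0.21. When scaled on T cell genes, 1 was higher and 9 were lower. Ndufb2, a subunit of complex I, stood at 16.1, 20.1 and 34.3 TPM in liver and 77, 65 and 91.4 TPM in spleen (log2 fold change -1.74 with SE 0.28, adjusted p = 0.00764). Atp5e, a subunit of the ATP synthase, stood at 537, 454 and 547 TPM in liver and 1104, 1076 and 1069 TPM in spleen (log2 fold change -1.08 with SE 0.079, adjusted p = 0.000198). The groups did not overlap for either. The higher gene was Cycs, cytochrome c, at 72 ± 8.52 TPM in liver and 48.7 ± 6.18 TPM in spleen, and its call was lost in 11 alternatives (adjusted p up to 0.164), among them any 1 spleen library or liver replicate 1 or 2 left out.

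Genes of B, plasma and myeloid cells were among those with large falls. Jchain, which links antibody monomers in plasma cells, stood at 0, 1.08 and 2.2 TPM in liver and 123, 136 and 131 TPM in spleen (log2 fold change -6.12 with SE 0.41, adjusted p = 0.000119). Cd79a, a chain of the B cell receptor, stood at 12.8, 13.3 and 36.9 TPM in liver and 151, 135 and 156 TPM in spleen (log2 fold change -2.92 with SE 0.37, adjusted p = 0.00306). Cd74, the invariant chain of MHC class II, stood at 284, 321 and 269 TPM in liver and 1255, 1268 and 1295 TPM in spleen (log2 fold change -2.13 with SE 0.075, adjusted p = 8.48e-06). Liver libraries were the lower in all 3 with no overlap. The same held for the marker sums of B, plasma and dendritic cells given above, which include these genes. Ly6d, a surface protein of B lineage cells, stood at 7.9, 16.1 and 7.07 TPM in liver and 103, 127 and 122 TPM in spleen, and Plac8 stood at 2.66, 1.63 and 8.58 TPM in liver and 65.6, 59.5 and 61.8 TPM in spleen. The lysozyme gene Lyz2 of myeloid cells was lower at 21.4, 23.4 and 46.7 TPM in liver and 133, 123 and 147 TPM in spleen (log2 fold change -2.18 with SE 0.28, adjusted p = 0.00314). In the other direction, the alpha haemoglobin gene Hba-a2 stood at 4027, 3778 and 4555 TPM in liver and 497, 629.6 and 576 TPM in spleen (log2 fold change 2.86 with SE 0.10, adjusted p = 8.48e-06).

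Of the other 15 genes chosen by size of fall, Tmsb15b2, Lrp3 and Insl3 were listed at 0 in all liver libraries. In spleen, Tmsb15b2 stood at 35.8, 25.6 and 2.26 TPM, Lrp3 at 11.8, 14.2 and 9.5 TPM, and Insl3 at 14.2, 2.83 and 22.8 TPM. No fold is given for them. Srpk3, a kinase of splicing factors, stood at 0.59, 0.68 and 0.56 TPM in liver and 18.1, 14.3 and 10.8 TPM in spleen, and Serpinc1 (antithrombin) stood at 0.68, 0 and 0 TPM in liver and 17.7, 6.58 and 5.94 TPM in spleen. Rpl36a-ps1 is a pseudogene whose reads can come from its parent gene. Calls of Tmsb15b2, Insl3, Smim4, Pkig, Alox5ap, Napsa, Lst1 and Car1 were each lost on leaving out at least 1 library, with adjusted p up to 0.112, 0.0783, 0.118, 0.105, 0.102, 0.0988, 0.128 and 0.104 over the alternatives. The calls of Tmsb15b2 and Lst1 were also lost with the length trend removed (adjusted p = 0.0548 and 0.070). In liver each of these 8 genes stood below 10 TPM in every library, except Smim4 at 15.6 TPM in replicate 2, so their liver levels rest on few reads. Among the higher genes, Asdurf stood at 9.86, 19 and 21.6 TPM in liver and was listed at 0 in all spleen libraries, and it shares its locus with Asnsd1, so its separate value is uncertain. Gem, a small GTPase induced in activated T cells, stood at 76.1, 73.3 and 83.8 TPM in liver and 4.29, 5.16 and 4.57 TPM in spleen. Cpm, a membrane carboxypeptidase, stood at 75.7, 77.6 and 68.3 TPM in liver and 5.57, 4.66 and 4.95 TPM in spleen, and the scaffold gene Grasp stood at 97.3, 87.7 and 109.7 TPM in liver and 6.34, 6.87 and 10 TPM in spleen.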

How the data were processed

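Polyadenylated RNA of Treg cells was sequenced. The authors deposited 1 table of TPM values per library, to 2 decimals, for 55487 Ensembl IDs, of which 55141 were matched to GENCODE M21 symbols. STAR, RSEM and the build mm10 are named in the submitters' processing notes, without versions. The strand setting is not given in the sources used here, so overlapping and antisense genes cannot be told apart.

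Genes that averaged 1 TPM or more in either group were tested on log2(TPM + 1) with limma 3.58.1 (R 4.3.3, trend and robust settings) on the 6 libraries, with Benjamini-Hochberg adjustment over 14487 genes and calls under 0.05. Fold changes on this scale understate low genes, and ratios quoted as "-fold" are ratios of mean TPM. Lists are described by counts and medians. The members, lists and alternatives were chosen with earlier results of these data known. The ranked genes are the 15 per direction with the largest log2 fold change among called genes with a higher-group mean from 10 TPM up and without overlap, leaving out predicted genes, receptor segments, small RNAs and mitochondrial genes. Other members are named by size of change or role, some after their values were seen. Depth was read from steps between low TPM values: 86.1% to 92.2% of values of up to 8 reads were whole within 0.1. The fit was tested on simulated data. No 2 tables were identical.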

Additional observations from a re-analysis of the deposited data

How the results depend on the processing

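With the settings of the report, limma called 1103 genes higher and 1154 lower in liver. With all 18 libraries in 1 fit, 2375 and 2903 were called. Leaving out 1 library at a time gave 543 to 1109 higher and 417 to 1257 lower genes, with the low ends reached without spleen replicate 1 (545 and 420), 2 (549 and 417) or 3 (543 and 430). A fit with the replicate number as a block called 726 higher and 721 lower. The other alternatives stayed within 1.5 times: 848 and 824 with no filter, 867 and 883 without trend or robust settings, 884 and 1223 with abundant classes removed, 1329 and 887 with T cell gene scaling. Removing the length trend, an alternative chosen after seeing the data, gave 1068 and 805, and 1596 of the 2257 calls were kept with the same direction. Of 230 called genes followed one by one, 191 kept their call under every alternative that used all 6 libraries, 168 kept it with any 1 library left out, and none reversed.

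For that block, the numbers share no stated origin. The deviations of same-numbered liver and spleen libraries correlated at -0.046, -0.023 and -0.021 over 7641 genes. None of the liver libraries correlated best with the spleen library of its own number. With 3 libraries per group, these correlations cannot decide whether a number marks a shared animal. No call of the report rests on the block or the pairing.

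Values that changed sign belonged to genes that did not pass the test: Cd3e with abundant classes removed (-0.057) and without liver replicate 1 (-0.038 to 0.0596 over the left-out libraries), Cd4 with T cell gene scaling (0.043) and without liver replicate 3 (-0.12 to 0.0074), Nfkb1 with T cell gene scaling (0.0084), and Tnfrsf18 with the length trend removed (0.0088). The cause was not tested. Liver depth limits genes below about 10 TPM, where 1 read is worth 0.345 to 0.423 TPM at 1 kb.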

Other observations

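Several genes outside the lists, chosen after their values were seen, differed clearly between the groups. Dgat1, which makes triglycerides in the last step of their synthesis, stood at 488, 468 and 419 TPM in liver and 52.8, 55.2 and 50.4 TPM in spleen. Hilpda, a hypoxia-induced inhibitor of lipolysis on lipid droplets, stood at 79.3, 64.7 and 87.7 TPM in liver and 11.4, 9.23 and 10.4 TPM in spleen. Odc1, the rate-limiting enzyme of polyamine synthesis, stood at 769, 649 and 757 TPM in liver and 137, 127 and 132 TPM in spleen. None of the 3 had overlapping groups, and their limma log2 fold changes were 3.09, 2.78 and 2.45. At the other sites, the lung mean of Dgat1 was 1930.3 TPM and that of Odc1 was 2468 TPM, above liver in both cases.

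Cxcl10, a chemokine that draws Cxcr3-bearing T cells, stood at 121, 112 and 106 TPM in liver and 21.4, 10.9 and 19.3 TPM in spleen, the highest mean of the 6 sites. S100a4, a calcium-binding protein of motile cells, stood at 1245 ± 64.6 TPM in liver and 329.9 ± 35.3 TPM in spleen (SD, n = 3). P2ry10, a lysophospholipid receptor, was 4.14-fold higher. In the other direction, Ephx1, an epoxide hydrolase, stood at 53.1 ± 7.76 TPM in liver and 179.8 ± 13.1 TPM in spleen. Dtx1, a Notch target of T cells, was lower at 57.5 ± 17.4 and 164 ± 14.2 TPM, and Cst7, an inhibitor of cathepsins, was lower at 33.2 ± 4.62 and 104 ± 6.2 TPM.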
